A study of Mus musculus with 45 samples.

Results

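The genes described here are 5 of the 54532 in the count table: Crabp1 and Crabp2, which encode the cellular retinoic acid binding proteins, Rbp4, the carrier of retinol in blood, Stra6, the membrane receptor through which cells take up retinol from that carrier, and Stra8, a gene named for its stimulation by retinoic acid (RA). They were taken by their Ensembl identifiers, and all 5 had counts in each of the 45 libraries. Organoids of neuroepithelium were grown from the mouse embryonic stem cell line R1 in Matrigel with N2B27 medium, and the labels name no transgene. They were collected at day 2 and then at 7 later times, the first 8 h and the second 18 h after day 2 and the others 12 h apart up to 78 h, either untreated or with 250 nM all-trans RA added at day 2, with 3 biological replicates for each of the 15 conditions. The labels name 1 cell line for all samples, and the sources do not say whether replicates were separate thaws. The samples' protocol gives the dose as 250 µM and some other times than the titles, and the dose and times of the study's text are used here.

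RA is made inside cells from retinol, the circulating form of vitamin A. RBP4 brings retinol to the cell, STRA6 passes it across the membrane and LRAT stores it as an ester. Once oxidised to RA, it is bound in the cytoplasm by CRABP1 and CRABP2. CRABP2 is known for handing RA to its receptors in the nucleus, the RAR and RXR proteins, whereas CYP26 enzymes break RA down. In the embryo, RA from the somites patterns the hindbrain and the spinal cord. STRA8 is known for a different role: in germ cells it acts with its partner MEIOSIN at the entry into meiosis, and RA is its classical inducer in that tissue.

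RARs bind pairs of a 6-base half-site, so the start regions of the genes were searched on both strands for the half-site AGGTCA, for the related half-site AGTTCA, for the half-site written GGGTCA, for the half-site written GGTTCA, and for direct repeats of 2 of them spaced by 1, 2 or 5 bases. RefSeq windows of 300 bases (250 before and 50 after a start, build GRCm38.p6) were at hand for 4 of the 5 genes (not Crabp2), 8 windows in all. The Stra8 window, of the gene with the widest range, held 2 copies of AGGTCA, which begin 194 and 38 bases before the RefSeq start, and the Crabp1 window held no half-site. Both are shown as the windows with the most and with no matches. Capitals mark half-sites.
Stra8 first copy, chr6:34920742-34920771, plus strand: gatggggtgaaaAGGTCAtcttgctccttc
Stra8 second copy, chr6:34920898-34920927, plus strand: gcctggggtaccAGGTCAgttttttacctg
Crabp1, chr9:54764498-54764747, plus strand: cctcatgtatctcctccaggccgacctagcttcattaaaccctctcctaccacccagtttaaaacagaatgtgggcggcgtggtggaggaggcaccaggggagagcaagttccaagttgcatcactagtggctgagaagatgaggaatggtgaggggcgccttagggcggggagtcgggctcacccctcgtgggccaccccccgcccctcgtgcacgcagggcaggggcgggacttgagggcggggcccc
GENCODE starts Stra8 further upstream, and in that annotation both Stra8 stretches lie in exon 2, ahead of the coding part, so that they are 5′ untranslated there. The Crabp1 stretch lies just before the gene. At least 1 copy was found in 16.3% of 32851 windows of this length over all genes and at least 2 copies in 1.81%. Among the 4 windows of Stra6, 1 held AGTTCA, and among the 2 windows of Rbp4, 1 held TGACCC, a half-site on the opposite strand. Any of the 4 half-sites occurs in 43.7% of windows. None of the 8 windows held a direct repeat, which 0.588% of all windows do. These are matches of letters and not measured binding sites.

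On GRCm38, Stra8 (ENSMUSG00000029848) lies at chr6:34920163-34939344 and Crabp2 (ENSMUSG00000004885) at chr3:87948666-87953376, both on the plus strand. Crabp1 (ENSMUSG00000032291, chr9:54764748-54773110) and Stra6 (ENSMUSG00000032327, chr9:58063788-58153996) share a chromosome and the plus strand, and Rbp4 (ENSMUSG00000024990) lies on the minus strand at chr19:38116629-38125281. The values are counts of reads over the exons of each whole gene. Merged exons cover 802 bases for Crabp1, 1322 for Crabp2, 1343 for Rbp4, 1803 for Stra8 and 5829 for Stra6. The gene Ccdc33 lies opposite Stra6 without sharing exon bases and reached at most 178 counts in a library, whereas Stra6 reached 3084.

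The libraries held 17298632 to 39688686 counts (median 25923745), and levels are given as CPM, counts scaled to the size of the library. Replicates differed by more than sampling noise in all 45 pairs. Part of the libraries stood apart in 4 Y-linked genes (Ddx3y, Eif2s3y, Kdm5d and Uty). Their mean level was 1.22 to 3.65 CPM in 6 libraries, namely RA 8 h replicate 3, RA 30 h replicates 1 and 3 and the 3 untreated libraries of that time, and 22.9 to 89.5 CPM in the other 39. Whether these libraries differ in the origin of their cells was not tested. Values without RA 8 h replicate 3 or without RA 30 h replicate 2 stand beside the members' RA effects at these 2 times. For untreated organoids at 30 h this difference and the time point cannot be told apart. The summed level of 7 neural progenitor markers was 493 to 512 CPM at day 2, 435 to 1298 CPM in untreated and 385 to 1524 CPM in RA-treated libraries, with Sox2 at 197 CPM or more in every library. Most of the day 2 sum was Sox2, at a mean of 406 CPM, and the other markers had means from 2.10 (Sox1) to 29.3 CPM (Nes). Markers of pluripotent cells summed to 1944 to 2074 CPM at day 2, so these sums do not by themselves give the cell type. In RNA from whole organoids, fewer cells of a type and less RNA per cell cannot be told apart.

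RA-treated organoids had more RNA of Stra8, Stra6 and Crabp2 than untreated ones over most of the course, and Stra8 was the one of the 5 genes that rose at all 7 time points. A gene is called here where the Benjamini-Hochberg adjusted p of edgeR's quasi-likelihood test, fitted on the 6 libraries of a time point, was under 0.01 and the log2 fold change was past 1. At 8 h, 1 of 4 tested members rose, beside 1.26% of all genes tested. At 18 h, 3 of 5 rose (8.17% of all genes), at 30 h 4 of 5 (5.98%), at 42 h 3 of 5 (7.49%), at 54 h 3 of 5 (7.17%), at 66 h 2 of 5 (7.06%) and at 78 h 1 of 5 (7.66%). No member fell at 8 h (0.537% of all genes), 18 h (2.76%), 30 h (2.48%), 42 h (4.96%), 54 h (5.99%) or 66 h (4.44%), and 1, Crabp1, fell at 78 h (4.03%). Without RA 8 h replicate 3, 3 of 5 members rose at 8 h, beside 3.71% of all genes (0 fell, beside 1.39%), and without RA 30 h replicate 2 the count at 30 h was again 4 of 5, beside 8.96% (0 fell, beside 4.54%). Without any 1 of the 3 untreated libraries at 30 h the count was 3 of 5, beside 2.23% to 2.48% of all genes. Every RA-treated library lay above every untreated one for 2 members at 8 h (18.2% of all genes), 4 at 18 h (31.2%), all 5 at 30 h (25.6%), 3 at 42 h (32%), 4 at 54 h (32%), 2 at 66 h (27.2%) and 2 at 78 h (27.9%). The reverse held for 0 members at 8, 18, 30 and 42 h (19.6%, 29.3%, 22.8% and 26.8% of all genes) and for 1 each at 54 h (27.7%), 66 h (28.8%) and 78 h (27.4%). With 3 libraries against 3, an exact permutation test of a single gene cannot give a two-sided p below 0.1.

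**Figure D1:**
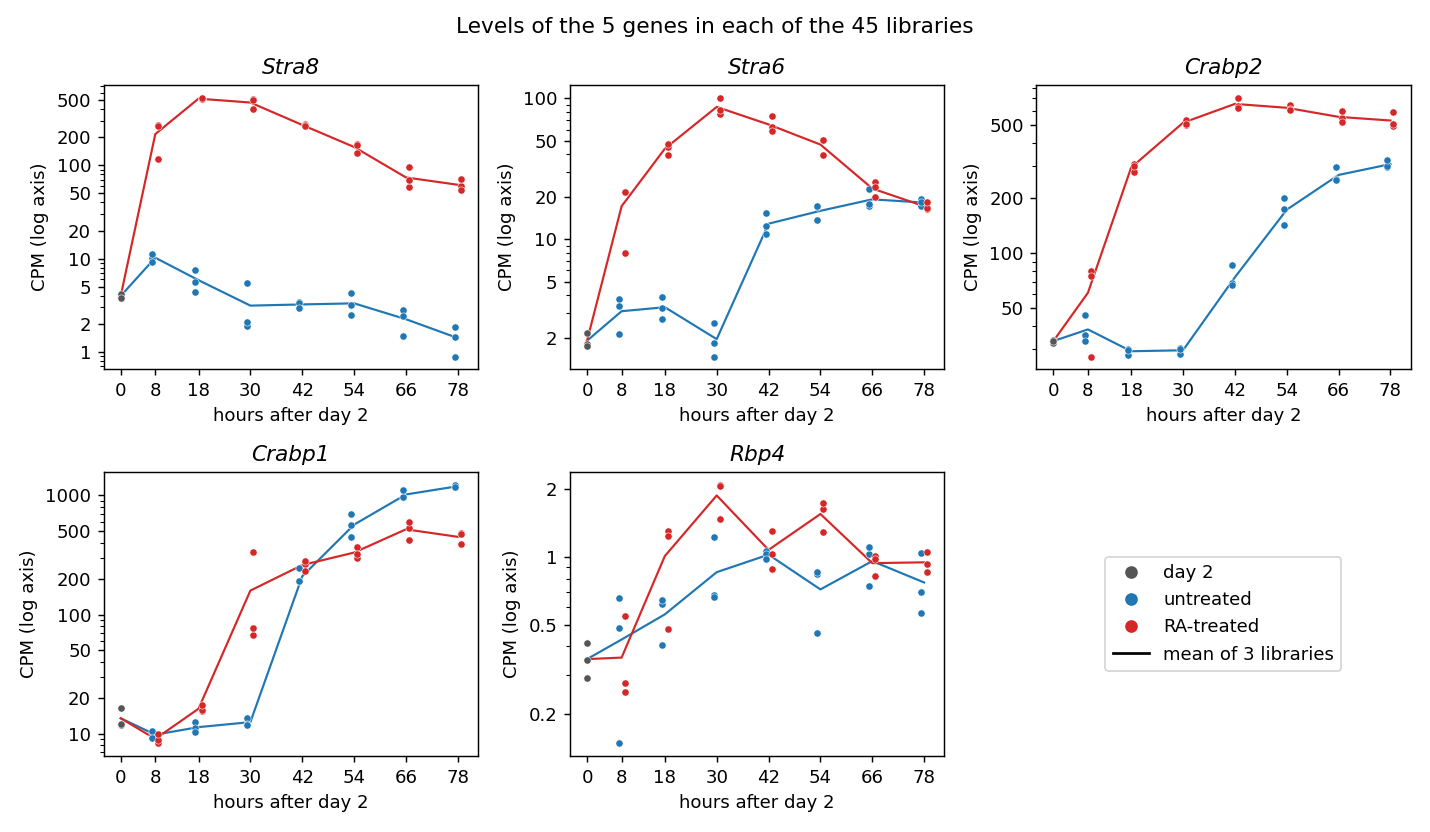
Level of each gene in each library (CPM on a log axis) against hours after day 2. Points are libraries, grey at day 2, blue untreated and red RA-treated, shifted sideways by arm, and lines join the means of 3 libraries. RA-treated Stra8 libraries lie above all untreated ones at every time, whereas untreated Crabp1 passes RA-treated Crabp1 from 54 h on.

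**Figure D2:**
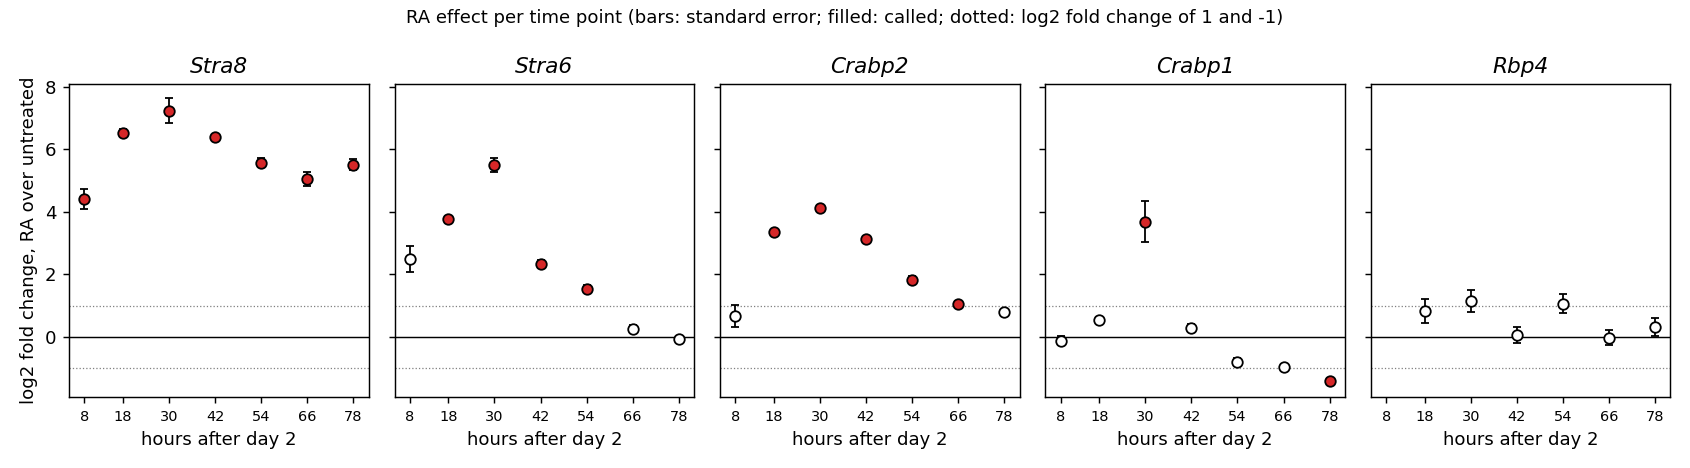
Log2 fold change of RA-treated over untreated libraries at each time point, with standard errors as bars. Filled points were called, open points were not, and dotted lines mark log2 fold changes of 1 and -1. Rbp4 was not tested at 8 h because its counts were too low.

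Stra8, which encodes the regulator of meiotic entry, had the widest range, from a mean of 1.41 CPM in untreated organoids at 78 h to 517 CPM in RA-treated organoids at 18 h. At day 2 its libraries read 3.98, 4.15 and 3.82 CPM. After 8 h of RA they read 268, 262 and 118 CPM, and without RA 10.3, 9.29 and 11.1 CPM. Replicate 3 was the low one of the RA-treated libraries and still lay 10 times or more above the untreated ones. The log2 fold change was 4.40 ± 0.32 (SE) with an adjusted p of 0.000442, and 4.69 without replicate 3. At 18 h the RA-treated libraries read 515, 509.8 and 527 CPM and the untreated ones 5.64, 7.55 and 4.43 CPM, a log2 fold change of 6.50 ± 0.13 (adjusted p = 1.08e-12). The RA-treated replicates thus lay close together, with an SD of 9.14 CPM.

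At 30 h Stra8 read 517, 397 and 497 CPM with RA and 1.92, 2.07 and 5.41 CPM without. The log2 fold change was 7.24 ± 0.40 (adjusted p = 5e-05), and 7.34 without RA 30 h replicate 2. From there the RA-treated level went down while the untreated level also stayed low, and the groups never overlapped. At 42 h the libraries read 277, 269 and 266 CPM with RA and 3.46, 3.31 and 2.92 CPM without. At 54 h they read 137, 169 and 165 CPM against 4.26, 2.48 and 3.21 CPM. By 66 h the RA-treated libraries were at 58.4, 94.8 and 69.0 CPM and the untreated ones at 2.84, 2.41 and 1.47 CPM. Stra8 thus stayed well above untreated organoids while its level dropped several-fold. At 78 h the values were 59.9, 54.7 and 70.8 CPM against 1.87, 1.46 and 0.892 CPM. Log2 fold changes at these 4 times were 6.38 ± 0.07, 5.56 ± 0.15, 5.05 ± 0.23 and 5.50 ± 0.18, with adjusted p-values of 1.2e-07 or less.

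Along time, in a fit of all 45 libraries, Stra8 in RA-treated organoids rose from day 2 to 8 h by 5.75 ± 0.28 on the log2 scale (adjusted p = 1.47e-18), or 6.04 without RA 8 h replicate 3, and again from 8 h to 18 h by 1.26 ± 0.21 (adjusted p = 1.51e-05). The second step was 0.97, under the fold limit, without RA 8 h replicate 3, and it did not pass when the 2 conditions were fitted on their own 6 libraries (adjusted p = 0.0212). The step from 18 h to 30 h was -0.13 ± 0.21 and was not called. From 54 h to 66 h the level fell by 1.08 on the log2 scale (SE 0.21, adjusted p = 0.00138). By their library numbers, 5 of the 6 libraries at 54 h fall in an earlier series and those at 66 h in a later one. With the series as a factor the same step was -0.93 with an adjusted p of 0.0958. Untreated organoids had a small rise of their own: from day 2 to 8 h Stra8 went up by 1.36 ± 0.29 (adjusted p = 0.00325), where 0.292% of all genes rose. That call was lost when any 1 of 5 of the 6 libraries was left out, with adjusted p-values from 0.0143 to 0.0193. By 78 h untreated Stra8 was below day 2 by 1.57 on the log2 scale (adjusted p = 0.000252).

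Stra6, the receptor for the retinol carrier, also responded to RA but its 2 arms met at the end. At day 2 it read 2.16, 1.80 and 1.74 CPM. With 8 h of RA the libraries read 21.8, 21.7 and 7.96 CPM, against 3.79, 3.33 and 2.12 CPM without. All 3 RA-treated libraries were above all untreated ones, but replicate 3 again stood low, and the log2 fold change of 2.48 ± 0.41 missed the threshold with an adjusted p of 0.012. Without that library it was 2.82 with an adjusted p of 6.64e-10. At 18 h the values were 39.2, 44.8 and 47.5 CPM against 3.88, 2.72 and 3.25 CPM. At 30 h they were 101, 77.5 and 82.2 CPM against 1.47, 1.83 and 2.55 CPM, the widest separation of the course. The log2 fold changes were 3.75 ± 0.11 (adjusted p = 2.7e-11) and 5.49 ± 0.22 (adjusted p = 2.37e-05), the latter 5.56 without RA 30 h replicate 2.

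After 30 h the Stra6 difference narrowed from both sides. At 42 h the RA-treated libraries were at 74.4, 62.3 and 58.8 CPM and the untreated ones at 10.8, 15.4 and 12.4 CPM. At 54 h the values were 39.6, 50.5 and 50.6 CPM against 13.8, 16.8 and 17.1 CPM. Both differences were called, with log2 fold changes of 2.33 ± 0.12 and 1.54 ± 0.11. At 66 h the libraries read 19.997, 25.3 and 23.3 CPM with RA and 17.2, 17.7 and 22.7 CPM without, and at 78 h 16.5, 16.7 and 18.2 CPM against 17.05, 19.2 and 18.2 CPM. The groups overlapped at both times, and the log2 fold changes were 0.27 ± 0.12 (adjusted p = 0.0793) and -0.07 ± 0.08 (adjusted p = 0.477). In untreated organoids Stra6 rose by 2.75 ± 0.26 on the log2 scale from 30 h to 42 h (adjusted p = 6.38e-10). In RA-treated organoids it fell by 1.03 from 54 h to 66 h (adjusted p = 0.000717), or by 0.91 with the library series as a factor (adjusted p = 0.0519). At 78 h both arms were still above day 2, by 3.14 ± 0.25 with RA and 3.21 ± 0.25 without.

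Rbp4, the retinol carrier, stood near the lower end of what these libraries measure, with 3 to 68 counts a library. Its level was 0.290, 0.350 and 0.415 CPM at day 2. At 30 h it was 1.47, 2.08 and 2.04 CPM with RA and 0.677, 1.22 and 0.664 CPM without. At 54 h the libraries read 1.62, 1.28 and 1.73 CPM against 0.459, 0.838 and 0.851 CPM. At both times the groups were apart, but with log2 fold changes of 1.15 ± 0.34 (adjusted p = 0.0395) and 1.06 ± 0.30 (adjusted p = 0.0114) neither was called. The first was 1.06 without RA 30 h replicate 2 (adjusted p = 0.0123). In a fit of all 45 libraries the same 2 contrasts passed, with 1.17 (adjusted p = 0.00271) and 1.09 (adjusted p = 0.00601). At the other 5 time points the RA-treated and untreated libraries overlapped, and at 8 h, with 3 to 12 counts, Rbp4 was too low to be tested. From day 2 to 30 h of RA, Rbp4 rose by 2.39 ± 0.36 on the log2 scale (adjusted p = 3.18e-07). The visceral endoderm, a tissue that makes RBP4 in the embryo, was looked for by 14 markers, whose sum was 15.4 to 55.7 CPM in RA-treated, 11.1 to 25.8 CPM in untreated and 11.5 to 13.9 CPM in day 2 libraries. Of these, Ttr, the blood partner of RBP4, had at most 12 counts, Apoa4 at most 1 and Apoc2 none in any library. The markers Sox17 (0.226 to 8.41 CPM at 18 h) and Dab2 (9.02 to 25.4 CPM) rose with RA. Their part in the Rbp4 values was not tested.

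Crabp2, which passes RA to nuclear receptors, was called from 18 h to 66 h. At day 2 it read 32.5, 33.6 and 33.2 CPM. After 8 h the RA-treated libraries read 79.7, 75.4 and 27.2 CPM and the untreated ones 35.7, 33.2 and 46.0 CPM. RA 8 h replicate 3 was below every untreated library while the other two were above all of them, and the log2 fold change of 0.67 ± 0.36 was not called (adjusted p = 0.261). Without that library it was 1.01 with an adjusted p of 6.34e-07. At 18 h the RA-treated libraries read 307, 277 and 298 CPM and the untreated ones 27.9, 29.9 and 29.5 CPM. At 30 h they read 533, 504 and 510.1 CPM against 30.3, 28.1 and 30.0 CPM. The log2 fold changes were 3.34 ± 0.06 (adjusted p = 6.62e-13) and 4.13 ± 0.09 (adjusted p = 1.56e-06), the latter 4.12 without RA 30 h replicate 2.

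From 30 h to 78 h the mean of Crabp2 in RA-treated organoids stayed between 516 and 654 CPM, and none of these 4 steps was called. Untreated Crabp2 meanwhile rose by 1.33 ± 0.18 on the log2 scale from 30 h to 42 h (adjusted p = 2.09e-06) and by 1.21 ± 0.18 from 42 h to 54 h (adjusted p = 2.7e-05). At 42 h the libraries read 705, 636 and 619 CPM with RA and 68.9, 85.7 and 67.0 CPM without. At 54 h they read 647, 614 and 607 CPM against 142, 175 and 201 CPM. The arms drew closer as the untreated values were higher at each later time. At 66 h the values were 548, 522 and 596 CPM against 256, 252 and 295 CPM, and at 78 h 493, 509 and 589 CPM against 296, 299.9 and 324 CPM. The log2 fold changes at these 4 times were 3.13 ± 0.09, 1.83 ± 0.10, 1.07 ± 0.07 and 0.81 ± 0.07. The last had an adjusted p of 3.88e-06 but lay under the fold limit, and the groups did not overlap.

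Crabp1, the other RA binding protein, was low in both arms until 18 h, was higher with RA at 30 h, and ended higher in untreated organoids. At day 2 its libraries read 11.8, 12.1 and 16.4 CPM. At 8 h they read 8.30, 8.88 and 9.95 CPM with RA and 9.77, 10.5 and 9.14 CPM without, which overlapped (log2 fold change -0.11 ± 0.14, or -0.20 without RA 8 h replicate 3). At 18 h the values were 15.4, 15.7 and 17.5 CPM against 12.6, 11.1 and 10.3 CPM. These groups were apart, but with a log2 fold change of 0.53 ± 0.09 (adjusted p = 0.00038) the difference lay under the fold limit.

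At 30 h the RA-treated libraries for Crabp1 read 67.4, 332 and 77.1 CPM and the untreated ones 13.5, 12.1 and 11.8 CPM. Replicate 2, the RA-treated library with the higher Y-linked level at this time, was more than 4 times as high as the other two. The log2 fold change was 3.68 ± 0.66 with an adjusted p of 0.00589. Without replicate 2 it was 2.50 (adjusted p = 1.88e-14), and in the earlier library series alone, which leaves RA replicate 1 against 3 untreated libraries, it was 2.42. When any 1 of the 3 untreated libraries was left out the adjusted p lay between 0.0335 and 0.0379, so that the call was lost. The direction was the same in each of these fits.

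In untreated organoids Crabp1 rose by 4.07 ± 0.34 on the log2 scale from 30 h to 42 h (adjusted p = 3.05e-11), when 3 of the 5 members and 3.12% of all genes rose. At 42 h the RA-treated libraries read 266, 231 and 284 CPM and the untreated ones 193, 246 and 190.0 CPM, which overlapped. At 54 h they read 301, 369 and 324 CPM against 446, 563 and 696 CPM, and the RA-treated libraries were for the first time all below the untreated ones (log2 fold change -0.79 ± 0.13, adjusted p = 0.000428, under the fold limit). The order of the arms had turned. At 66 h the libraries read 535, 426 and 596 CPM with RA and 974, 974 and 1108 CPM without (log2 fold change -0.96 ± 0.10). At 78 h they read 483, 477 and 387 CPM against 1166, 1232 and 1187 CPM, and the fall under RA was called (log2 fold change -1.40 ± 0.08, adjusted p = 1.23e-07). Both arms were far above day 2 at 78 h, by 6.42 ± 0.37 without RA and 5.03 ± 0.35 with RA.

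Set side by side per kilobase of exon, the binding proteins changed places. CRABP1 and CRABP2 are alike in fold and both bind RA, so the share of Crabp1 in the sum of both genes (CPM per kilobase) was computed in each library. It was 39.9% ± 4.35 (SD, n = 3) at day 2. At 18 h it was 8.34% ± 0.632 with RA and 39.1% ± 3.22 without, and at 42 h 39.6% ± 3.01 and 82.4% ± 0.186. At 78 h it was 58.2% ± 5.36 with RA and 86.5% ± 0.680 without. The share was thus lower in RA-treated than in untreated libraries without overlap at 18, 42, 54, 66 and 78 h. At 30 h, where RA replicate 2 reached 52.1% and the other two stayed at or under 19.9%, the arms overlapped. The summed level of the pair at 78 h was 961 ± 28.2 CPM per kilobase with RA and 1722 ± 43.0 without. At 30 h of RA the order of all 5 genes on this scale was Crabp2 at 390.1 ± 11.4, Stra8 at 261 ± 35.5, Crabp1 at 198 ± 187, Stra6 at 14.9 ± 2.10 and Rbp4 at 1.39 ± 0.257 CPM per kilobase. Crabp1 took the third place by its mean alone: in replicate 2 it stood first, at 414 CPM per kilobase beside 381 for Crabp2, and in the other two libraries it was at 84.1 and 96.1.

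**Figure D3:**
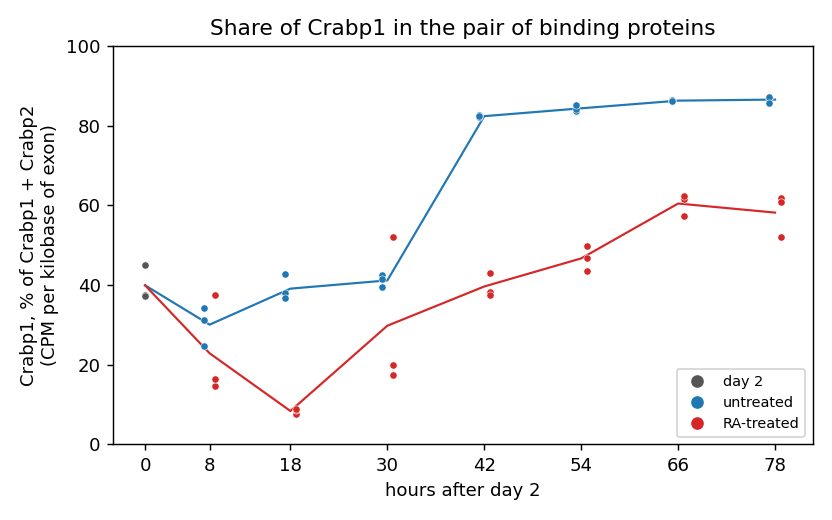
Share of Crabp1 in the sum of Crabp1 and Crabp2 (percent, from CPM per kilobase of exon) in each library against hours after day 2. Grey points are day 2, blue untreated and red RA-treated libraries, and lines join the means of 3 libraries. From 42 h on, untreated libraries lie at 82.2% or more and RA-treated ones at 62.2% or less.

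Ranked over the 15 conditions, Stra8 had the 7 RA-treated conditions first, from 517 CPM at 18 h down to 61.8 CPM at 78 h, and untreated 8 h next at 10.2 CPM. Of its 14 pairs of neighbouring ranks 9 overlapped, among them 18 h and 30 h of RA. Crabp2 was highest at 42 h of RA (654 CPM) and lowest in untreated organoids at 18 h (29.1 CPM), with 9 of 14 neighbouring pairs overlapping. Crabp1 ran from 1195 CPM in untreated organoids at 78 h to 9.04 CPM after 8 h of RA (9 of 14 overlapping), and Stra6 from 86.8 CPM at 30 h of RA to 1.90 CPM at day 2 (10 of 14). For Rbp4 all 14 neighbouring pairs overlapped.

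Against day 2, 2 of 5 members had risen by 8 h of RA (4.83% of all genes) and 4 by 18 h (13.3%). Without RA 8 h replicate 3 the first count was 3, with Crabp2 up by 1.21. All 5 were called at 30 h (18.4%), 42 h (18.6%), 54 h (19.2%), 66 h (19.9%) and 78 h (20.7%). The calls of Rbp4 at 66 h and 78 h were lost with the library series as a factor (adjusted p = 0.0187 and 0.018) and without day 2 replicate 1 (0.0118 and 0.0113), and its call at 18 h without RA 18 h replicate 1 (0.0109). In untreated organoids 1 had risen by 8 h (0.292%), 0 by 18 h (2.91%), 1 by 30 h (10.3%), 4 by 42 h (12.2%), 3 by 54 h (13.4%), 4 by 66 h (16.3%) and 3 by 78 h (18.3%), when 1, Stra8, had fallen (13%). The 1 at 30 h was Rbp4, up by 1.21 (adjusted p = 0.00948), which was lost under 8 alternatives, 4 of them the omission of a single library (adjusted p from 0.0146 to 0.0816). Its call at 66 h was lost with the series and without day 2 replicate 1, and at 78 h it newly passed with library totals and without untreated 78 h replicate 2. Between neighbouring times, 4 members rose from 8 h to 18 h of RA (5.35%), 1 from 18 h to 30 h (3.17%), and 2 fell from 54 h to 66 h (0.162%). Without RA 8 h replicate 3 the first count was 2, Crabp2 (1.92) and Stra6 (1.02), and without RA 30 h replicate 2 the second was 2, Crabp1 (2.14) and Stra6 (1.05). The percentages in this paragraph are from the fit of all 45 libraries. Shares of all genes without a library are not given, so the counts without a library are not set against a background. Of the 4 that rose from 8 h to 18 h of RA, Rbp4 was lost without any 1 of 4 libraries (adjusted p from 0.0172 to 0.0266) and on its own 6 libraries (adjusted p = 0.083). Without RA 30 h replicate 2, Crabp1 also rose from 30 h to 42 h of RA, by 1.85. The falls from 54 h to 66 h were lost without RA 66 h replicate 1 for both Stra8 and Stra6, without RA 66 h replicate 3 for Stra8, and without RA 54 h replicate 2 or 3 for Stra6. In untreated organoids 3 rose from 30 h to 42 h (3.12%) and 2 from 42 h to 54 h (0.37%). Of the latter, Crabp1 (1.43, adjusted p = 0.00314) was lost with the library series as a factor (1.13, adjusted p = 0.0119) and without any 1 of 4 libraries (adjusted p from 0.0149 to 0.0352).

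The size of the RA effect differed between time points, as interaction terms of the fit of 45 libraries show. From 8 h to 18 h it grew for Crabp2 by 2.68 ± 0.26 on the log2 scale and for Stra8 by 2.10 ± 0.35, while 0.771% of all genes gained and 0.412% lost. Without RA 8 h replicate 3 the differences were 2.34 and 1.81. From 18 h to 30 h it grew for Crabp1 by 3.17 ± 0.47, or 1.98 without RA 30 h replicate 2, and for Stra6 by 1.77 ± 0.35, beside 4.07% of all genes that gained and 2.78% that lost. From 30 h to 78 h the log2 effect was lower for 4 of the 5 genes, beside 9.33% of all genes (7.73% were higher), and by most for Stra6 (-5.58 ± 0.32) and Crabp1 (-5.09 ± 0.44). Without RA 30 h replicate 2 these were -5.64 and -3.92. The call for Stra8 was lost without untreated replicate 1 or 2 of 30 h or of 78 h (adjusted p from 0.0119 to 0.031). The differences for Rbp4 had adjusted p-values of 0.179 or more.

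Other genes of the RA pathway moved in both directions. Of 30 listed genes other than the members, 21 were tested at 18 h and 7 rose (8.17% of all genes) and 1 fell (2.76%). At 8 h 5 of 21 rose (1.26%) and 0 fell (0.537%), and at 30 h 8 of 19 rose (5.98%) and 2 fell (2.48%). Later the falls came closer to the rises. At 42 h 7 of 22 rose (7.49%) and 2 fell (4.96%), and at 54 h 5 of 22 rose (7.17%) and 5 fell (5.99%). At 66 h 4 of 23 rose (7.06%) and 4 fell (4.44%), and at 78 h 4 of 24 rose (7.66%) and 3 fell (4.03%). At 30 h the count of rises was 2 without any 1 of the 3 untreated libraries (2.23% to 2.48% of all genes), and 8 without RA 30 h replicate 2 (8.96%).

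Among genes of uptake and storage, Lrat, the enzyme of retinol storage, rose at 18 h from 0.219 to 0.796 CPM. Stra6l, a second receptor of the Stra6 kind, was called at 30 h alone, with 0.424 and 2.20 CPM. Fabp5, a fatty acid binding protein that can carry RA to another receptor, was at 32.9 CPM without and 16.5 CPM with RA at 18 h (log2 fold change -0.99 ± 0.07, adjusted p = 1.03e-07), just inside the fold limit and so not called.

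The enzymes of RA breakdown rose first. Cyp26a1 went from 5.51 to 232 CPM at 8 h and from 2.75 to 276 CPM at 18 h (log2 fold change 6.63 ± 0.09, adjusted p = 8.24e-14), and Cyp26b1 from 0.336 to 17.5 CPM at 18 h (5.62 ± 0.17). Cyp26b1 then turned: at 78 h it was at 110.1 CPM in untreated and 4.13 CPM in RA-treated organoids, a fall of 4.71 on the log2 scale. Dhrs3, a reductase that returns retinal to retinol, was at 44.5 CPM with RA at 18 h, a rise of 5.31 ± 0.11. Aldh1a2, which makes RA, was called from 30 h on. Its mean was 4.71 CPM with and 2.70 CPM without RA at 18 h, where it was not called, and 3.99 and 0.569 CPM at 78 h. Of 5 listed enzymes of retinol and retinal tested at 18 h only Dhrs3 rose, and of 3 breakdown genes all 3 rose, where 8.17% of all genes rose. Among 6 receptors Rarb rose at all 7 time points, from 0.782 to 44.4 CPM at 18 h (5.87 ± 0.11), whereas Rxrg fell from 18 h on, from 16.2 to 4.003 CPM at that time (-2.01 ± 0.15).

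**Figure D4:**
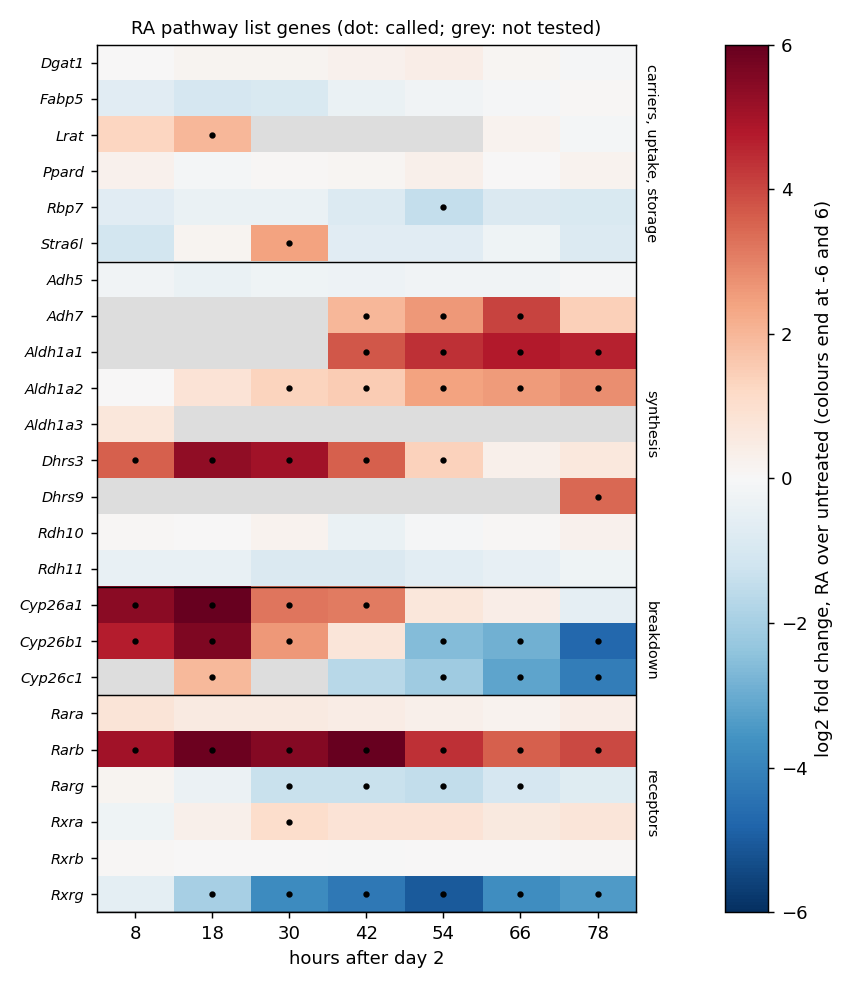
Log2 fold change of RA-treated over untreated libraries for genes of the RA pathway list (rows, in 4 groups) at each time point (columns). Red is higher and blue lower with RA, a dot marks a called gene and grey a gene not tested. The breakdown enzymes Cyp26b1 and Cyp26c1 are red at 18 h and blue from 54 h on.

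Other genes of meiosis moved in both directions. Rec8, a cohesin of meiotic chromosomes, rose at all 7 time points, from 14.4 to 90.5 CPM at 18 h (log2 fold change 2.66 ± 0.06, adjusted p = 3.59e-12) and from 25.4 to 193 CPM at 30 h. Meiosin was at 5.09 CPM without and 3.70 CPM with RA at 18 h and was not called, and it fell at 30 h from 4.21 to 1.20 CPM, at 42 h and at 54 h. Sycp3, of the axis of meiotic chromosomes, fell from 30 h on, with 16.9 and 2.64 CPM at 78 h. Spo11, which cuts DNA in meiosis, rose at 18 h from 0.544 to 1.42 CPM. Of 15 meiosis genes tested at 18 h, 2 rose (8.17% of all genes) and 0 fell (2.76%), and the median log2 fold change was 0.30. At 54 h 1 of 13 rose (7.17% of all genes) and 4 fell (5.99%), with a median of -0.65. The 8 germ cell markers summed to 107 to 255 CPM in RA-treated, 47.3 to 168 CPM in untreated and 179 to 186 CPM in day 2 libraries, and none was at 0 in a library. Of these Tfap2c and Nanos3 rose at 18 h, while Dazl (13.6 and 21.6 CPM without and with RA) was not called. In RA 8 h replicate 3, where Stra8 was low, the sum was 159.6 CPM against 251 and 242 CPM in the other 2 libraries. Their part in the Stra8 values was not tested.

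**Figure D5:**
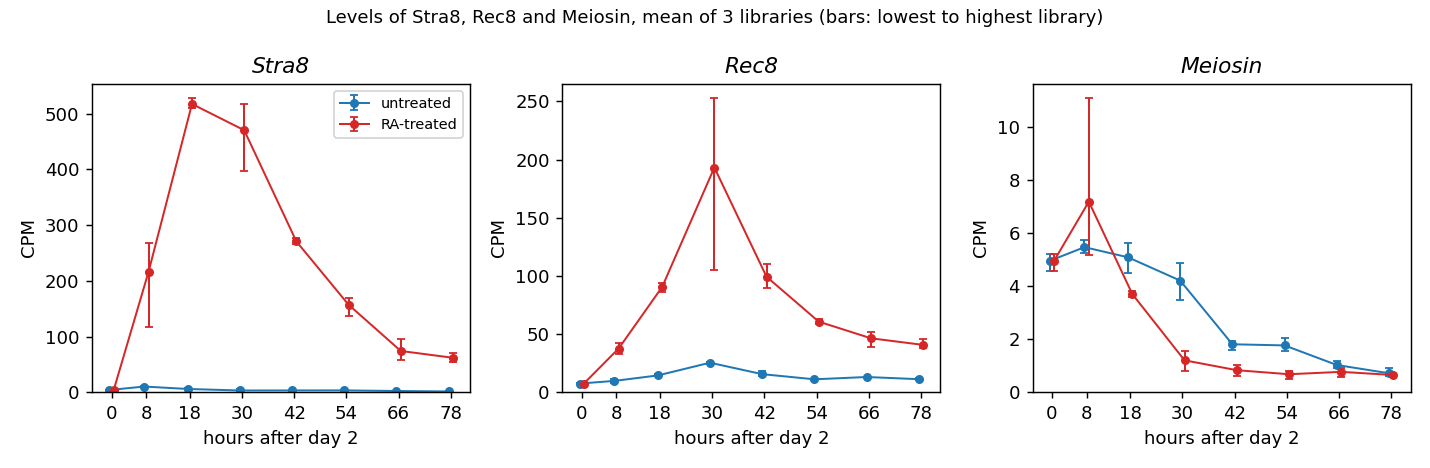
Mean level (CPM) of Stra8, Rec8 and Meiosin against hours after day 2 in untreated (blue) and RA-treated (red) organoids, each with its own axis from 0. Bars run from the lowest to the highest of 3 libraries. Stra8 is highest at 18 h of RA (517 CPM) and Rec8 at 30 h of RA (193 CPM), while Meiosin stays under 12 CPM.

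Genes that carry a Stra number as an older name, and Stra6l, were checked beside Stra6 and Stra8. All 10 others were tested. Of these 4 rose at 8 h (1.26% of all genes), 5 at 18 h (8.17%) and 4 at 30 h (5.98%). At these times 0 fell (0.537%, 2.76% and 2.48% of all genes). Efnb1, a membrane-bound ephrin ligand, rose from 3.70 to 37.0 CPM at 18 h (log2 fold change 3.31 ± 0.09) and Meis2, a homeobox factor, from 29.01 to 178 CPM (2.63 ± 0.05). Lefty1, an inhibitor of Nodal, and Tfap2c were also called at 18 h, with 1.71 ± 0.09 and 1.37 ± 0.07. Gbx2, a homeobox gene of the early neural plate, rose at 8 h and 18 h and fell from 42 h on. Wnt8a, a Wnt ligand, fell from 42 h on, with 166 and 4.70 CPM at 78 h. Bhlhe40 rose at 8 h, from 9.24 to 24.0 CPM, and Stra6l at 30 h. Cenpx and Laptm5 were called at none of the 7 time points. From 42 h on only Tfap2c rose (7.06% to 7.66% of all genes), whereas 3, 4, 2 and 2 of the 10 fell (4.96%, 5.99%, 4.44% and 4.03%).

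Which genes followed the members most closely was read from Pearson's r of the 15 condition means of log2(CPM + 1), over 14303 genes, as a description. The conditions share the RA treatment and the time course, so that high values are common. For Stra8 these were Dag1 (r = 0.984), Grasp (0.977) and Hoxb5 (0.977), each highest at 18 h of RA, at 434, 50.03 and 36.5 CPM. Their lowest condition means were 211, 6.55 and 0.141 CPM, and r does not measure the size of a change. For Crabp2 they were Irx1 (0.983), Pax6 (0.982) and Plxna2 (0.979), and for Crabp1 Ptn (0.994), Prss23 (0.992) and Pcdhgc4 (0.976). Stra6 was followed by Fbln1 (0.956), Zadh2 (0.956) and Iqsec2 (0.953), and Rbp4 by Galnt12 (0.937), Ebpl (0.934) and Aebp1 (0.932). Rbp4 itself had a mean of 0.892 CPM, under the limit of 1 CPM set for the genes searched. Among the members themselves r ran from 0.888 for Crabp2 and Stra6 to -0.106 for Crabp1 and Stra8.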

How the data were processed

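Poly(A) RNA from 45 libraries of mouse organoids (15 conditions, 3 biological replicates each) was read as 75-base single ends. Per the labels and the study's methods, the authors trimmed reads with Trim Galore 0.5.0, removed abundant sequences with Bowtie2 2.3.4.1, aligned to GRCm38 with STAR and an Ensembl annotation, and counted reads with featureCounts (Subread 1.6.2), whose raw counts they deposited. The strand setting and the handling of reads with several matches are not given in the sources used here. Samples were grouped by their titles.

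Each RA-treated condition was set against its untreated one in R 4.3.3 with edgeR 4.0.16 (TMM scaling, filterByExpr with a minimum of 10 counts, quasi-likelihood test) on the 6 libraries of that time. Calls needed an adjusted p (Benjamini-Hochberg) under 0.01 and a log2 fold change past 1. Changes along time and differences between time points (adjusted p under 0.01) came from 1 fit of all 45 libraries, in which 19194 genes were tested. CPM values are TMM-scaled over all libraries, and CPM per kilobase uses merged exons of GENCODE M21. The steps were tested on simulated data. Positions were matched to GENCODE M21 for 54409 of 54532 genes. The precision of low values is set by depth, and intervals of counting error are not given. The genes named were the members; Ttr, Stra6l, Lrat, Fabp5, Meiosin and Rec8; up to 4 tested genes of each other list with the largest absolute log2 fold change at 18 h; all tested genes with a Stra number; and for each member the 3 genes of highest correlation among those with a mean of at least 1 CPM. Sycp3, Sox2, Apoa4, Apoc2, Tubb3 and Snai2 fall outside this rule and were named after their values were seen, and 4 Y-linked genes served to check the libraries. A listed gene that the lists' counts include is not reported here by name. The members and lists were chosen with earlier results of these data known. Alternatives were DESeq2 1.42.0, other scalings and filters, a replicate block, the library series as a factor and leaving out each library.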

Additional observations from a re-analysis of the deposited data

Results flagged for a closer look

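The RA effect differed between time points for 4 of the genes, by interaction terms of the edgeR fit of 45 libraries (Benjamini-Hochberg adjusted p under 0.01). Every value is the later log2 fold change of RA minus the earlier one. From 8 h to 18 h the difference was 2.68 for Crabp2 (adjusted p = 3.89e-08) and 2.10 for Stra8 (adjusted p = 0.000248), the latter with an adjusted p of 0.02 on the 12 libraries of these times alone. From 18 h to 30 h it was 3.17 for Crabp1 (adjusted p = 6.31e-06) and 1.77 for Stra6 (adjusted p = 0.000492). The Crabp1 difference was 1.98 without RA 30 h replicate 2 and had an adjusted p of 0.0172 on the 12 libraries alone. From 30 h to 78 h it was -3.33 for Crabp2 (adjusted p = 8.15e-13), -5.58 for Stra6 (adjusted p = 5.3e-16), -5.09 for Crabp1 (adjusted p = 2.22e-11) and -1.76 for Stra8 (adjusted p = 0.00311). The last had an adjusted p of 0.0183 on the 12 libraries alone. Its call was also lost without untreated 30 h replicate 1 or 2 (adjusted p = 0.0199 and 0.0119). The same held without untreated 78 h replicate 1 or 2 (0.031 and 0.0141). The Crabp1 difference was -3.92 without RA 30 h replicate 2. All 3 libraries of each arm at 78 h belong to the later library series, and at 30 h 2 of the RA-treated ones do. At 30 h the 3 untreated libraries and RA replicates 1 and 3 had the lower Y-linked level, and all libraries at 18 h and 78 h the higher one. In the untreated arm this difference and the 30 h time point cannot be told apart.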

How the results depend on the processing

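Of 310 RA effects of single members recomputed under other tools, scalings, filters or a block, 294 kept direction and side of the threshold, 14 newly passed it and 2 changed sign. Rbp4, at 3 to 68 counts, is limited by depth. All libraries at 66 h and 78 h are of the later series, so these times alone cannot tell time and series apart. The series factor rests on the conditions that hold both series. These are day 2 (replicate 3 later), RA 30 h (replicates 2 and 3) and untreated 54 h (replicate 3). In RA 30 h replicate 2 Crabp1 read 332 CPM, against 67.4 and 77.1 CPM in replicates 1 and 3. The cause of the shifts below was not tested.

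Leaving out 1 library at a time gave log2 fold changes under RA of 0.43 to 1.01 for Crabp2 and 2.27 to 2.82 for Stra6 at 8 h, 2.50 to 4.05 for Crabp1 at 30 h and -1.08 to -0.84 at 66 h, and for Rbp4 -0.097 to 0.19 at 42 h and -0.16 to 0.095 at 66 h. Along time it gave, from day 2 to untreated 8 h, -0.15 to 0.68 for Rbp4, to untreated 30 h -0.21 to 0.050 for Crabp1 and -0.25 to 0.20 for Stra6, and to RA 8 h -0.41 to 0.25 for Rbp4. Between untreated times it gave -0.024 to 0.81 for Rbp4 and -0.14 to 0.25 for Stra6 from 8 h to 18 h, -0.014 to 0.044 for Crabp2 from 18 h to 30 h, -0.24 to 0.71 and -0.19 to 0.18 for Stra8 from 30 h to 42 h and on to 54 h, and -0.14 to 0.066 for Stra6 from 66 h to 78 h. For Rbp4 it gave -0.10 to 0.063 from 66 h to 78 h of RA and -0.029 to 0.65 for the difference of the RA effects at 30 h and 18 h. Members called up at 8 h numbered 1 to 3 and down at 66 h 0 to 1, and pathway genes down at 18 h 1 to 2 and up at 30 h 2 to 8. Over all genes the same fits called 59 to 606 up at 8 h and 641 to 735 down at 66 h. They called 431 to 483 down at 18 h and 386 to 1508 up at 30 h.

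Stra6 at 8 h passed with DESeq2 and without a filter (2.47 each), and in both 45-library fits and with the library series (2.48 each), so that 2 members rose. The 45-library fits called Rbp4 at 30 h (1.17 with edgeR, 1.16 with DESeq2) and 54 h (1.09 and 1.095), and other settings did so for 54 h: the series (1.26), library totals (1.12), no filter (1.07) and a minimum of 10 counts (1.06). Signs turned for Rbp4 at 66 h with DESeq2 on 45 libraries (0.0061) and library totals (0.040), for Rbp4 from 66 h to 78 h of RA without a filter (0.010), for Crabp2 from untreated 18 h to 30 h with library totals (-0.0012), and for Stra6 from day 2 to untreated 30 h with DESeq2 (0.014), RLE (0.0028), library totals (0.056), no filter (0.011) and its own 6 libraries (0.033). With the series as a factor Crabp1 turned from day 2 to untreated 18 h (0.040) and 30 h (0.19) and from 54 h to 66 h of RA (-0.21). Over all genes tested, library totals put the median log2 fold change at 0.138 (18 h) and 0.179 (30 h), and TMM at 0.0227 and 0.0405.

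At an adjusted p under 0.05 with no fold limit, 2 members rose at 8 h (5.96% of all genes), 2 rose at 78 h (25.4%), 1 fell at 54 h (24.7%) and 1 fell at 66 h (22.8%). Pathway genes then rose in number to 11 (18 h), 11 (42 h), 11 (54 h), 8 (66 h) and 11 (78 h), and those lower to 2 (8 h), 5 (18 h), 4 (30 h), 8 (42 h), 8 (54 h), 7 (66 h) and 7 (78 h). Of all genes, 24.3% to 28.9% rose at the former times and 5.25% to 26.1% fell at the latter. A minimum of 10 counts left 4 up (18 h), 3 (54 h), 2 (66 h) and 2 (78 h). A test against the fold limit (glmTreat) left 2 up and 1 down at 30 h, 4 up at 42 h, 3 up and 2 down at 54 h, and 1 member up at 66 h. DESeq2, RLE and no filter gave 2 pathway genes down at 18 h. Shares of all genes are not given for the minimum of 10 counts, glmTreat, DESeq2, RLE, no filter or the replicate block. Counts under these settings are therefore not set against a background.

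Replicate numbers correlated over 0.1 in every pair at 1 of 7 time points (66 h), r ran from -0.343 to 0.465, and 11 of 21 libraries correlated best with their own number, so the numbers are not taken as pairs. With the replicate block Stra6 was called at 8 h (2.40, adjusted p = 0.00665), which made 2 members.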

Other observations

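The wider family of small intracellular lipid binding proteins, to which Crabp1 and Crabp2 belong, was little expressed: of 13 listed genes 5 were tested at 18 h and 5 at 54 h. At 54 h 1 rose (7.17% of all genes) and 2 fell (5.99%). The markers of pluripotent cells summed to 133 to 1445 CPM in RA-treated and 519 to 1681 CPM in untreated libraries, after 1944 to 2074 CPM at day 2. At 18 h 0 of 8 rose (8.17% of all genes) and 3 fell with RA (2.76%). The neuron markers summed, over all times, to 146 to 379 CPM with RA and 272 to 404 CPM without. At 18 h 0 of 8 were called, where 8.17% of all genes rose and 2.76% fell. At 78 h Dcx (4.90 CPM without and 47.4 CPM with RA), Elavl4, Isl1 and Tubb3 were called up with RA. Stmn2 was called down at that time (163 CPM without and 43.4 CPM with RA). Among 7 markers of the neural crest, a source of Crabp1-expressing cells in the embryo, 1 rose and 1 fell at 18 h (8.17% and 2.76% of all genes). Over all times their sum was 28.5 to 77.4 CPM with RA and 41.1 to 102 CPM without. The mean sum was 52.7 CPM with and 92.4 CPM without RA at 18 h. At 78 h it was 69.0 CPM with and 42.3 CPM without RA. Erbb3, Tfap2a and Snai2 were then called up with RA and Foxd3 down.

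In RA 30 h replicate 2, where Crabp1 stood high, the visceral endoderm markers summed to 55.7 CPM against 30.6 and 29.8 CPM in the other 2 libraries, and the neural progenitor markers to 747 CPM against 1051 and 979 CPM. In RA 8 h replicate 3, where Stra8, Stra6 and Crabp2 stood low, the pluripotent markers summed to 1445 CPM against 1163 and 1083 CPM. The part of these differences in the members' values was not tested.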
